A study of Mus musculus and Mus musculus x Mus spretus with 14 samples.

Results

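Among mouse skin carcinoma lines, 5 that the labels class as malignant spindle were compared with 3 classed as malignant squamous. These are 8 of the 13 cell lines profiled and 9 of the 14 arrays. The lines of both groups were taken by that label alone, and no measured value entered that choice. Squamous carcinoma cells keep an epithelial shape and grow as attached sheets, whereas spindle carcinoma cells are elongated and have lost epithelial morphology. The question of the comparison was which microRNAs (miRNAs) separate these morphologies among lines that are all malignant.

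The squamous lines were B9, E4 and PDVC57, and the spindle lines were A5, D3, CARB, CARC and H11. B9, A5 and D3 descend from 1 tumour of an M. spretus X CBA F1 hybrid mouse that had received multiple treatments with DMBA, a chemical carcinogen. E4 and H11 are clones grown from single cells of SN161, which came from a lymph node metastasis in an F1 129/NIH mouse. PDVC57 came from a tumour that grew after PDV cells, keratinocytes transformed with DMBA in culture, were injected into mice of their own C57BI strain. CARB and CARC came from spindle carcinomas of NIH/Swiss mice treated with DMBA and the tumour promoter TPA. The 8 lines thus represent fewer than 8 independent tumours. All were grown in DMEM with serum and measured on 1 array each, except A5, whose 2 arrays were averaged. Every line was a culture, and in a culture fewer cells of a type and less RNA per cell cannot be told apart. The 5 non-malignant squamous lines (C5N, C50, NK, MSCP1 and P6) appear below as background values, without a test.

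A miRNA is a short RNA that guides a silencing complex to messenger RNAs, chiefly through its seed, the bases 2 to 8 from its 5′ end. The miR-200 family is a hallmark of epithelial cells: it represses the transcription factors Zeb1 and Zeb2, which in turn repress E-cadherin and the miR-200 genes themselves, and its loss accompanies epithelial-mesenchymal transition. miR-205 and miR-203 are miRNAs of stratified epithelium, the former abundant in basal keratinocytes and the latter in differentiating ones. miR-143, miR-145 and the miR-199 and miR-214 group are abundant in fibroblasts and smooth muscle and scarce in most epithelial cells.

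The sequences that the results turn on are given 5′ to 3′ with the seed in capitals. They were taken from RefSeq for mouse build GRCm38.p6. The first set is the miR-200 family, which holds 2 seeds, and the title miRNAs of the series, miR-205 and miR-203.
miR-200a: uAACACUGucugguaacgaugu
miR-141: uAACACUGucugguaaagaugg
miR-200b: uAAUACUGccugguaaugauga
miR-200c: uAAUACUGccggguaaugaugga
miR-429: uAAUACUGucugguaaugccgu
miR-205: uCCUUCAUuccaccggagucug
miR-203: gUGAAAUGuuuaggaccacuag
miR-200a and miR-141 share a seed and differ at 2 bases. miR-200b, miR-200c and miR-429 share the other seed, and miR-200b differs from miR-200c at 2 bases and by 1 base in length. The mature miR-200a, miR-200b and miR-429 lie together on the minus strand, at chr4:156054911-156054932, chr4:156055685-156055706 and chr4:156053916-156053937, within the span of the annotated gene Gm13648. The miR-141 and miR-200c sequences lie on the minus strand of chromosome 6, at chr6:124717917-124717938 and chr6:124718324-124718346. miR-205 lies at chr1:193507503-193507524 on the minus strand and miR-203 at chr12:112130927-112130948 on the plus strand.

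The second set holds the brighter miRNAs that separated the groups and those with signal in spindle lines.
miR-106b: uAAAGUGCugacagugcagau
miR-19b: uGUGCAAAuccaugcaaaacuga
miR-182: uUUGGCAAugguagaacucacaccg
miR-222: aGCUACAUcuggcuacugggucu
miR-433*: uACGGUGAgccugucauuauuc
miR-322: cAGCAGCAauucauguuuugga
miR-16: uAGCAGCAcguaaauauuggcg
miR-181a: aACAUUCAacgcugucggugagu
miR-199a-5p: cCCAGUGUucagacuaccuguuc
miR-199a-3p: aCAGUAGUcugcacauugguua
miR-106b lies at chr5:138165787-138165807 within the span of Mcm7, miR-182 at chr6:30165962-30165986, miR-222 at chrX:19146901-19146923 and miR-322 at chrX:53054306-53054327, each on the minus strand. miR-433* is the 5′ arm of the miR-433 hairpin at chr12:109591729-109591750 on the plus strand, within the span of Rtl1. miR-19b, miR-16, miR-181a and the miR-199a arms are each encoded at 2 places in the genome. miR-16 is shown because it shares its seed with miR-322 while differing at 10 bases.

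Levels are the deposited log2 signals, in which a difference of 1 unit is a 2-fold change in signal. A probe was called above background where it exceeded the median of the 8 negative control probes of its array by more than 1 log2 unit, a threshold that lay between 7.50 and 7.67. Of the 576 mouse probes, 295 were above background in none of the 8 lines, 281 in at least 1 and 62 in all 8. Per line, 144 to 184 probes were above background in squamous lines and 119 to 185 in spindle lines. The 2 A5 arrays correlated at r = 0.994, with a median absolute difference of 0.114. Line A5 stood apart from the others: its 7 correlations with them across probes ran from 0.695 to 0.778. The lines did not sort clearly by morphology in this measure. The 15 squamous-to-spindle pairs had a median r of 0.862, the 10 spindle pairs 0.872 and the 3 squamous pairs 0.877. Without A5 the medians were 0.881 between groups and 0.91 within spindle lines. Their ranges overlapped, at 0.797 to 0.95 and 0.872 to 0.934. The squamous line B9 and the spindle line D3, from the same tumour, correlated at 0.95.

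No probe passed the test across all 576 mouse probes (limma, Benjamini-Hochberg, 0%), and the smallest adjusted p was 0.109. At an unadjusted p under 0.05, limma gave 22 probes (3.82%), 14 lower (2.43%) and 8 higher (1.39%) in spindle lines, and the exact permutation test gave 15 (2.6%). Mean differences of at least 2-fold were seen for 23 probes (3.99%), 18 lower (3.12%) and 5 higher (0.868%). With 5 against 3 lines there are 56 splits, so the exact two-sided p cannot fall below 0.0179, a value that 6 probes (1.04%) reached. None passed after adjustment of the exact p. The statements that follow are therefore about measured levels in these 8 lines. p-values measure the spread between these lines, some of which share a tumour.

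Line by line, 22 probes (3.82%) had no overlap between the groups, 15 lower (2.6%) and 7 higher (1.22%) in spindle lines. Being above background in every line of the higher group left 8 (1.39%). These were miR-200a, miR-200b, miR-141, miR-106b, miR-19b, miR-182 and miR-222, all lower in spindle lines, and miR-433*, higher in spindle lines. In 9 of the 22 the gap between the groups exceeded the median difference between the 2 A5 arrays, and 6 of those 9 were among the 8. The gap was 1.10 for miR-200b and 0.66 for miR-200a, but 0.01 for both miR-19b and miR-433*. Another 7 of the 22 were above background in no line of their higher group.

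**Figure D1:**
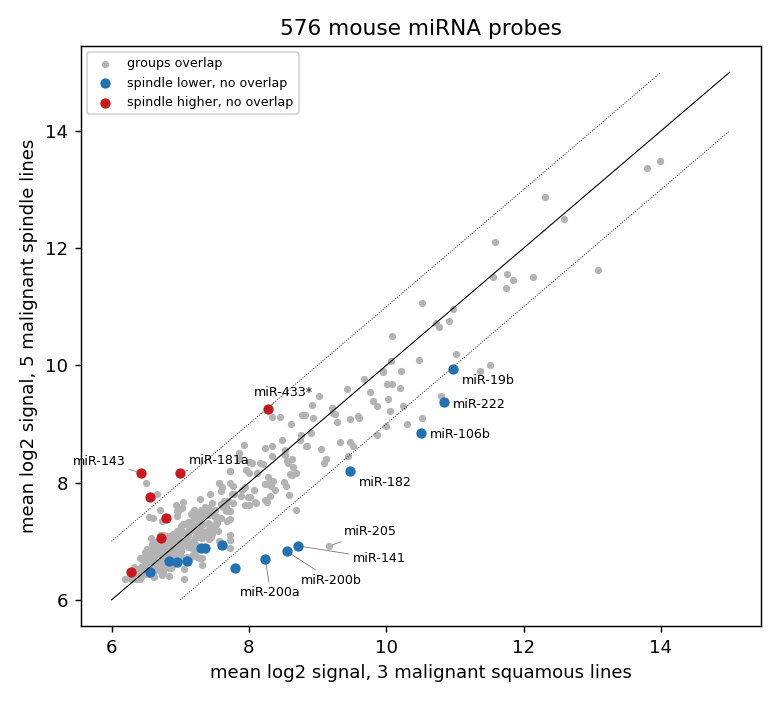
Mean log2 signal of each of the 576 mouse probes in the 3 malignant squamous lines (x axis) and the 5 malignant spindle lines (y axis), with equality as the solid line and 2-fold differences as dotted lines. Blue points (15) and red points (7) are probes whose groups do not overlap; miR-200a, miR-200b, miR-141 and miR-205 sit near background on the spindle axis, whereas miR-106b, miR-19b, miR-182 and miR-222 stay bright on both axes.

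The widest gaps between the groups were those of miR-200b, miR-200a and miR-141, of the miR-200 family. All 5 family members had a lower mean in spindle lines, as had 51.4% of the mouse probes, with a median difference of -1.55 against -0.01 over all mouse probes. Without PDVC57, the brightest line for each member, the family's median was -0.91. 4 of the 5 had no overlap between the groups, beside 3.82% of all probes, and 0 of the 5 were above background in any spindle line. None passed the adjusted limma test.

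miR-200b read 8.08 in B9, 8.05 in E4 and 9.52 in PDVC57, against 6.77 in A5, 6.95 in D3, 6.58 in CARB, 6.91 in CARC and 6.92 in H11. Every squamous line was above background and no spindle line was, and the highest spindle line lay 1.10 below the lowest squamous line. The fitted difference was -1.72 ± 0.34 (SE, limma adjusted p = 0.109, exact p = 0.0179). It was -1.24 without PDVC57 and -1.18 with the tumour of origin as a fixed block. Here and below, that block fit leaves out PDVC57, CARB and CARC, whose tumours gave 1 morphology each. Since the spindle lines gave only a bound, the squamous level was at least 1.89-fold higher. This bound sets the squamous mean against the dimmest signal above background on each spindle array.

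miR-200a, the neighbour of miR-200b on chromosome 4, read 8.20 in B9, 7.60 in E4 and 8.93 in PDVC57, against 6.53, 6.94, 6.55, 6.68 and 6.77 in A5, D3, CARB, CARC and H11. The groups again did not overlap, although E4 was only just above its threshold of 7.50. The difference was -1.55 ± 0.29 (SE, limma adjusted p = 0.109, exact p = 0.0179), and the squamous level was at least 1.53-fold higher. The difference was -1.20 without PDVC57 and -1.19 with the tumour as a fixed block.

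miR-141, which shares the miR-200a seed, read 7.66 in B9, 8.02 in E4 and 10.49 in PDVC57, and 7.30 in A5, 7.27 in D3, 6.37 in CARB, 6.76 in CARC and 6.91 in H11. PDVC57 stood well above the other squamous lines, and B9 was barely above background. The difference was -1.80 ± 0.56 (SE, limma adjusted p = 0.766, exact p = 0.0179), at least 2.13-fold. It was -0.91 without PDVC57 and -0.69 with the tumour of origin as a fixed block, which also leaves out PDVC57.

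miR-200c, the neighbour of miR-141 on chromosome 6, was above background in PDVC57 alone among the 8 lines. It read 6.83 in B9, 7.21 in E4 and 9.37 in PDVC57, and between 6.29 and 6.75 in the spindle lines. The groups did not overlap, with a gap of 0.08 between B9 and D3. The difference was -1.27 ± 0.46 (SE, limma adjusted p = 0.962). The squamous mean was 1.13-fold above the bound for the spindle lines, with 1 of 3 squamous lines measured. B9 and E4 entered that mean below background, so this fold is not a strict lower bound. The difference was -0.48 without PDVC57 and -0.40 with the tumour as a fixed block.

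miR-429, the third member on chromosome 4, was below background in all 8 lines. It read 7.32, 6.92 and 7.51 in B9, E4 and PDVC57, and 7.40 in CARB against 6.46 to 6.68 in the other spindle lines, so the groups overlapped.

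miR-205, the basal keratinocyte miRNA, showed the largest mean difference of the 576 probes but did not separate the groups. It read 10.94 in B9, 6.69 in E4 and 9.87 in PDVC57, against 7.39 in A5, 6.92 in D3, 6.52 in CARB, 6.88 in CARC and 6.90 in H11. B9 and PDVC57 were bright, whereas the squamous line E4 was at background with the spindle lines. The difference was -2.25 ± 0.74 (SE, limma adjusted p = 0.766, exact p = 0.0893). The squamous mean was 2.91-fold above the bound for the spindle lines, with 2 of 3 squamous lines measured. E4 entered that mean below background, so this fold is not a strict lower bound and does not hold for E4. Leaving out E4 gave -3.49 and an adjusted limma p of 0.00214, and leaving out B9 gave -1.36. E4 kept miR-200a, miR-200b and miR-141 above background while miR-205 was not.

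miR-203, the miRNA of differentiating keratinocytes, was below background in all 8 lines, at 6.80 to 7.10 in squamous and 6.80 to 7.17 in spindle lines. The difference was 0.03 ± 0.17 (SE, 95% interval -0.33 to 0.40, limma adjusted p = 0.985). At this signal no difference was detectable.

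miR-135b, an epithelial-enriched miRNA, also had no overlap, at 7.53, 7.44 and 7.86 in B9, E4 and PDVC57 against 6.65 to 7.27 in spindle lines. Only PDVC57 was above background, and the difference was -0.67 ± 0.22 (SE, limma adjusted p = 0.766), or -0.39 with the tumour as a fixed block.

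**Figure D2:**
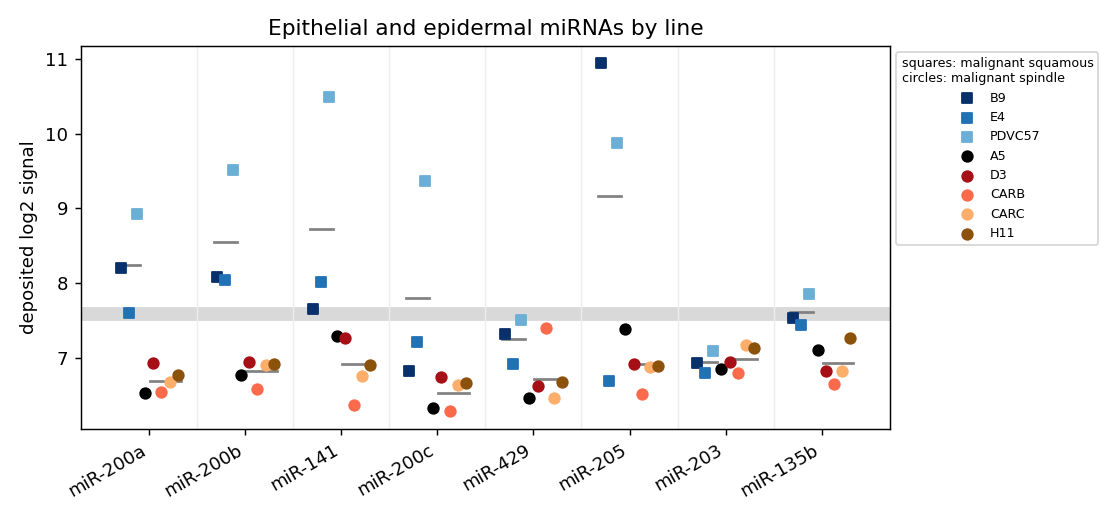
Deposited log2 signal of 8 epithelial and epidermal miRNAs in each malignant line (squares squamous, circles spindle); grey bars are group means and the grey band is the range of the background thresholds, 7.50 to 7.67. For miR-200a, miR-200b and miR-141 the 3 squamous lines lie above the spindle lines and every circle lies under the band, whereas E4 joins the spindle lines for miR-205.

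Non-malignant squamous lines give a background for these levels. miR-200b read 10.87 in C50, 10.21 in NK and 10.19 in P6, and miR-200a 9.89, 9.88 and 9.29. These lie above every malignant squamous line, and miR-205 in the same lines read 11.48, 10.45 and 11.51. C5N and MSCP1 read 6.81 and 7.18 for miR-200b. On those arrays the ubiquitous let-7a was also low, at 6.99 and 7.34, and their part in these values was not tested.

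Within the tumours that gave both morphologies, miR-200b was lower in D3 than in B9 by a difference of -1.13, in A5 than in B9 by -1.31, and in H11 than in E4 by -1.13. For miR-200a the same differences were -1.26, -1.66 and -0.83. All 3 spindle lines therefore lay below their squamous relative for both miRNAs. A5 and D3 were set against the same B9 array. The 3 spindle lines were below background for both miRNAs, so the sizes of these differences are not well measured. For miR-205 the differences from B9 were -4.02 in D3 and -3.56 in A5, whereas H11 differed from E4 by 0.21, with both below background.

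Several fibroblast and smooth muscle miRNAs were above background in some spindle lines and in no squamous line. No probe was above background in all 5 spindle lines and no squamous line. Of 10 measured members of this list, 9 had a higher mean and 1 a lower mean in spindle lines, a higher mean being found for 48.6% of all probes, with a median difference of 0.60 against -0.01 over all probes. Over only those members whose mean level in the 8 lines was above background, the median was 0.02. 3 of the 10 had no overlap, beside 1.22% of all probes in that direction, and none passed the adjusted limma test. The number of members above background was 3 in each squamous line, 2 in A5, 5 in D3, 7 in CARB, 8 in CARC and 5 in H11.

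miR-143, a smooth muscle and fibroblast miRNA, showed the largest difference in this direction of the 576 probes. It read 6.55 in B9, 6.20 in E4 and 6.52 in PDVC57, and 6.69 in A5, 8.35 in D3, 9.31 in CARB, 9.32 in CARC and 7.18 in H11. CARB, CARC and D3 were above background, while A5 and H11 were not. The difference was 1.75 ± 0.58 (SE, limma adjusted p = 0.766, exact p = 0.0357). It was 0.97 with the tumour as a fixed block, which leaves out CARB and CARC. The spindle mean was 1.51-fold above the bound for the squamous lines, with 3 of 5 spindle lines measured. A5 and H11 entered that mean below background, so this fold is not a strict lower bound. miR-143 lay between 6.45 and 6.73 in the 5 non-malignant lines, below background in each.

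miR-145, encoded beside miR-143, read 6.56 to 6.63 in squamous lines, and 6.57 in A5, 7.59 in D3, 7.76 in CARB, 8.26 in CARC and 6.75 in H11. The same 2 spindle lines, A5 and H11, were below background. D3 lay at its own threshold, also 7.59, so CARB and CARC were the lines with a clear signal.

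miR-199a-3p, on a probe shared with miR-199b, read 6.46, 6.53 and 6.51 in B9, E4 and PDVC57. It read 6.49 in A5, 6.95 in D3, 9.45 in CARB, 9.11 in CARC and 8.01 in H11. CARB and CARC were again the highest, but here H11 was above background and D3 was not. The difference was 1.5 ± 0.61 (SE, limma adjusted p = 0.962), and 0.78 with the tumour as a fixed block, which leaves out CARB and CARC. The spindle mean was 1.34-fold above the bound for the squamous lines. A5 and D3 entered that mean below background, so this fold is not a strict lower bound.

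The other miR-199 probes were likewise brightest in CARB, CARC and H11. miR-199a-5p, from the opposite arm, read 8.97 in CARB, 8.87 in CARC, 7.45 in H11, 6.96 in A5 and 6.82 in D3, against 6.53 to 6.84 in squamous lines. miR-199b* read 9.02, 8.79, 7.60, 6.69 and 6.65 in the same lines, against 6.44 to 6.63 in squamous lines. CARB and CARC were the 2 lines above background on both probes.

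miR-214, which is transcribed with a miR-199a copy, did not separate the groups. It read 8.13 in B9, 9.27 in E4 and 8.16 in PDVC57, and 9.37 in A5, 8.02 in D3, 8.73 in CARB, 8.62 in CARC and 8.00 in H11. All 8 lines were above background, and the difference was 0.02 ± 0.47 (SE, 95% interval -1.02 to 1.07).

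The spindle lines thus differed among themselves in these miRNAs. CARB and CARC, from NIH/Swiss mice, had signal for miR-143, miR-145 and the miR-199 probes. D3 had miR-143 without miR-199a, H11 had miR-199a-3p without miR-143, and A5 had neither above background.

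**Figure D3:**
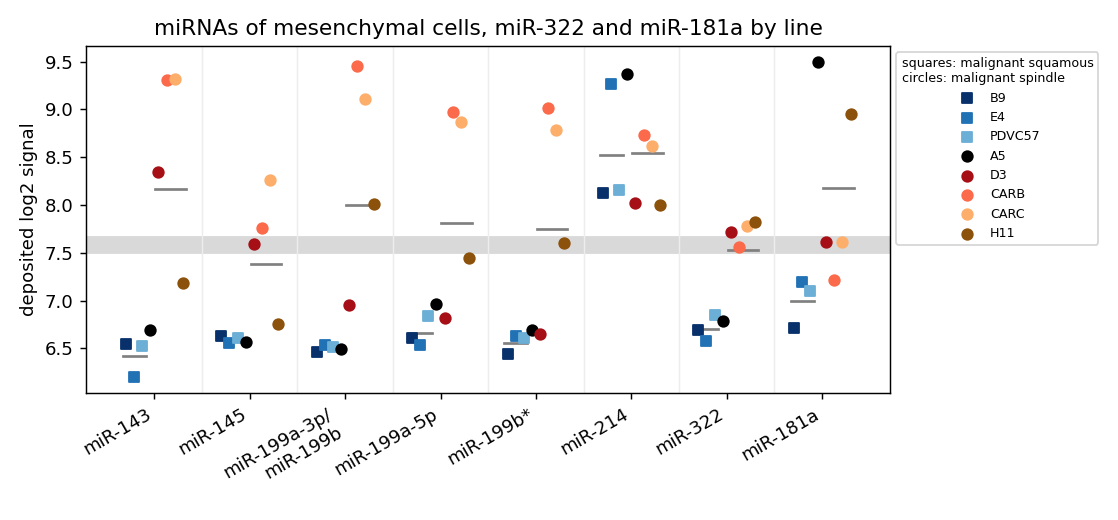
Deposited log2 signal of 6 fibroblast and smooth muscle miRNAs, miR-322 and miR-181a in each malignant line, with symbols, mean bars and background band as for the epithelial miRNAs. CARB and CARC are the highest lines for the miR-199 probes and miR-143, A5 stays near the squamous lines for these, and miR-214 overlaps between groups.

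Brighter miRNAs that separated the groups were lower in spindle lines while staying above background in 3 or more of the 5. miR-106b, a growth-associated miRNA encoded with miR-93 and miR-25, read 10.64 in B9, 10.31 in E4 and 10.54 in PDVC57, and 6.65 in A5, 10.12 in D3, 8.64 in CARB, 8.92 in CARC and 9.92 in H11. A5 was below background, whereas D3 lay 0.19 under the lowest squamous line. The difference was -1.65 ± 0.75 (SE, limma adjusted p = 0.962, exact p = 0.0536), and -1.10 without A5.

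miR-19b, which is encoded in the cluster of miR-17, read 11.02, 11.00 and 10.90 in B9, E4 and PDVC57, and 10.11 in A5, 10.89 in D3, 9.46 in CARB, 8.88 in CARC and 10.29 in H11. D3 differed from PDVC57 by 0.01, which is less than the difference between the 2 A5 arrays. The fitted difference was -1.04 ± 0.59 (SE, limma adjusted p = 0.962). It was -0.63 after quantile normalization and -0.60 with the tumour as a fixed block.

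Across that cluster and its paralogs, 13 of 13 members had a lower mean in spindle lines, beside 51.4% of all probes. The differences ran from -1.65 to -0.01, with a median of -0.60. Among the 62 probes above background in all 8 lines, 42 (67.7%) were also lower on average and 2 (3.23%) were lower without overlap, so a lower mean was frequent among bright probes. Of the 13 members, 5 were among these 62. 2 of the 13 had no overlap, beside 2.6% of all probes in that direction, and none passed the adjusted limma test.

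miR-182 is encoded with miR-183 and miR-96 in a cluster best known from sensory epithelia and also found in many carcinomas. It read 9.58 in B9, 9.42 in E4 and 9.42 in PDVC57, and 8.07 in A5, 9.22 in D3, 7.55 in CARB, 7.44 in CARC and 8.69 in H11. The squamous lines were tightly grouped, D3 was nearest to them, and CARB and CARC were below background. The difference was -1.28 ± 0.49 (SE, limma adjusted p = 0.962, exact p = 0.0357), and -0.85 with the tumour as a fixed block. Its cluster mates were also lower on average, by -1.15 for miR-183 and -0.75 for miR-96, with overlap between the groups. For miR-96 the difference was -0.39 without B9 and -0.37 with the tumour as a fixed block.

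miR-222, which targets the cell cycle inhibitor Cdkn1b, read 10.35 in B9, 11.79 in E4 and 10.37 in PDVC57, and 8.43 in A5, 9.87 in D3, 9.52 in CARB, 8.90 in CARC and 10.15 in H11. E4 was the highest and H11, of the same tumour, was the highest spindle line. The difference was -1.46 ± 0.62 (SE, limma adjusted p = 0.962, exact p = 0.0357). miR-221, with the same seed and encoded beside it, overlapped between the groups, at 9.59 to 10.57 in squamous and 8.83 to 10.14 in spindle lines.

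Control probes also differed between the lines in which these bright miRNAs differed. The mean of the spike-in probes was 7.79 in B9, 7.97 in E4 and 8.84 in PDVC57, and 9.27 in A5, 7.63 in D3, 9.81 in CARB, 10.02 in CARC and 9.13 in H11. The first U6 probe, a small nuclear RNA, read 12.18, 11.90 and 11.24 in the squamous lines and 10.58, 11.97, 10.07, 10.41 and 9.78 in the spindle lines. D3 resembled the squamous lines on both, as it did for miR-106b, miR-19b and miR-182. H11 had the lowest U6 level, 9.78, yet was the spindle line next nearest to the squamous lines for these miRNAs. The part of these control levels in the differences was not tested. After centring each line on the probes above background everywhere, or after quantile normalization, miR-106b, miR-182, miR-200a, miR-200b and miR-433* still separated the groups above background under either scaling, and miR-222 under neither. miR-141 did so after quantile normalization but not after centring, and miR-19b after centring but not after quantile normalization. miR-31, lower in spindle lines, and miR-503, higher in them, separated the groups above background under both scalings but not in the deposited values.

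**Figure D4:**
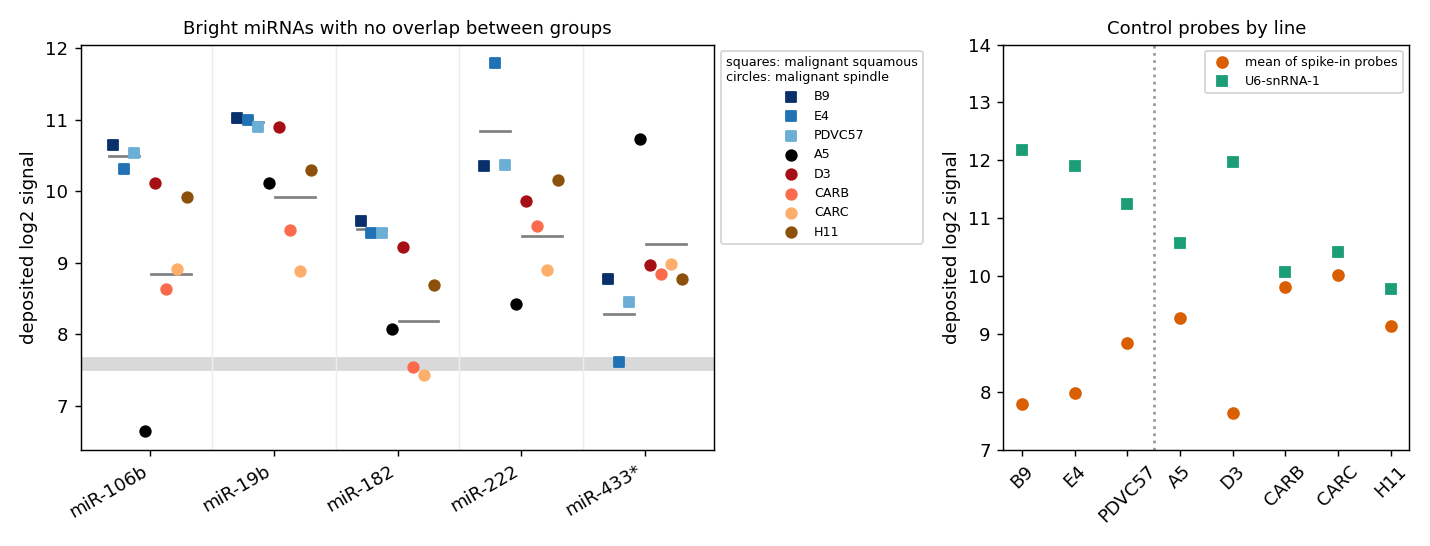
Left, deposited log2 signal in each malignant line of the 5 bright miRNAs whose groups do not overlap, with mean bars and background band as before; right, the mean of the spike-in probes (orange) and the first U6 probe (green) in each line, with squamous lines left of the dotted line. CARB and CARC are low for miR-106b, miR-19b and miR-182 and have the highest spike-in means, 9.81 and 10.02, while D3 lies near the squamous lines in both panels.

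miR-433*, from the imprinted Dlk1-Dio3 cluster, was the 1 probe (0.174%) that was higher in spindle lines, without overlap and above background in every spindle line. It read 8.77 in B9, 7.62 in E4 and 8.45 in PDVC57, and 10.73 in A5, 8.97 in D3, 8.84 in CARB, 8.99 in CARC and 8.78 in H11. The gap between H11 and B9 was 0.01, and A5 stood far above the other spindle lines. The difference was 0.98 ± 0.56 (SE, limma adjusted p = 0.962, exact p = 0.0714), 0.61 without A5 and 0.65 without E4. Of 37 other probes of the cluster, 23 had a higher and 14 a lower mean in spindle lines, with a median difference of 0.04.

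miR-322, which has the miR-16 seed and is known for promoting cell cycle exit in muscle differentiation, read 6.69 in B9, 6.58 in E4 and 6.85 in PDVC57. It read 6.79 in A5, 7.72 in D3, 7.56 in CARB, 7.78 in CARC and 7.82 in H11. Apart from A5 every spindle line was above every squamous line, with 3 of them above background. The difference was 0.83 ± 0.26 (SE, limma adjusted p = 0.766, exact p = 0.0536), and 1.01 without A5. miR-16 itself, with the same seed, overlapped between the groups, at 9.87 to 10.50 in squamous and 6.99 to 10.83 in spindle lines.

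In the X-linked cluster that holds miR-322, 10 of 11 measured members had a higher mean in spindle lines, beside 48.6% of all probes, and 1 a lower mean, with a median difference of 0.27. 2 of the 11 were higher without overlap, beside 1.22% of all probes. miR-450a-5p was one of these, at 6.61 to 6.89 in squamous lines and 7.29 in A5, 8.04 in D3, 7.75 in CARB, 6.99 in CARC and 6.96 in H11. Most of these levels lie near background, and none passed the adjusted limma test.

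miR-181a, a miRNA best known from lymphocyte development, was below background in every squamous line and above it in 4 of 5 spindle lines, the only probe with that pattern. It read 6.71 in B9, 7.19 in E4 and 7.10 in PDVC57, and 9.50 in A5, 7.61 in D3, 7.21 in CARB, 7.61 in CARC and 8.95 in H11. A5 and H11, the lines without miR-143, were the brightest, and D3 and CARC were near their thresholds. CARB exceeded E4 by 0.02. The difference was 1.17 ± 0.51 (SE, limma adjusted p = 0.962, exact p = 0.107), and 1.80 with the tumour as a fixed block. The spindle mean was 1.51-fold above the bound for the squamous lines. CARB entered that mean below background, so this fold is not a strict lower bound.

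Small differences without overlap were also seen close to background. In the X-linked group of miR-362, miR-532 and miR-188, 9 of 9 measured members had a lower mean in spindle lines, beside 51.4% of all probes, and 3 were lower without overlap, beside 2.6%. The median difference was -0.13, and -0.03 after centring. miR-362-5p reached the smallest exact p, 0.0179, with levels of 7.06 to 7.14 in squamous and 6.52 to 6.87 in spindle lines. It was below background in all 8 lines, and the difference was -0.43 ± 0.13 (SE, limma adjusted p = 0.766).

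Other lists held no member without overlap in the deposited values. The let-7 family, 9 miRNAs that oppose Lin28 and Hmga2, had 4 members with a higher and 5 with a lower mean, and a median of -0.09. The miR-29 family, which targets collagen messages, had a median of -0.38, which was 0.03 after quantile normalization. The difference was 0.67 for miR-29c, or 0.44 without E4. It was -0.61 for miR-29b, or -0.34 without E4, -0.32 with the tumour as a fixed block and -0.05 after quantile normalization. The 5 miR-30 miRNAs were all lower on average, beside 51.4% of all probes and 67.7% of those above background in all 8 lines. Their median was -0.90, or -0.52 without A5, and each overlapped between groups. The 8 miRNAs of the list for invasion and TGF-beta signalling had a median of -0.41, which was -1.48 over those whose mean level was above background. Among them miR-31 read 7.61 in A5 against 9.91 to 11.61 in the other spindle lines and 11.26 to 12.01 in squamous lines. None of these passed the adjusted limma test.

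Markers of other cell types were mostly at background. Above background in at least 1 line were 4 of 9 neural, 2 of 6 muscle and 1 of 9 pluripotent markers. The pluripotent marker was miR-290-5p, above background in all 8 lines, at 9.69 in A5 and 8.43 to 9.28 in the others. The 2 endothelial markers (both arms of miR-126) and the 2 melanocyte markers were above background in no line. Of 7 blood markers, miR-142-3p read 10.01 in E4, 9.89 in D3 and 11.08 in H11, and 6.72 to 7.15 in the other 5 lines. miR-142-5p followed it, at 9.33, 8.91 and 9.86 against 6.68 to 7.13. These 3 lines include both morphologies, and the groups overlapped. miR-150 was above background in A5 alone, at 7.74. The leukocyte and erythroid markers miR-223, miR-451 and miR-144 were below background in all 8 lines. The mean over the 7 blood markers was 6.72 to 7.51 in squamous lines and 6.69 to 7.83 in spindle lines.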

How the data were processed

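miRNAs were measured on Exiqon arrays with 1 dye, Cy3, and 1 µg of total RNA per array, isolated with a Qiagen miRNA kit, per the labels' protocols. The deposited values are log2 signals, a scale read from the values themselves. Which scanner, background correction and normalization were used was not given in the sources used here, and centring and offset are unknown. The table holds 1271 probes with 0 missing values; 576 name a mouse miRNA, under 568 different labels, and were tested. Column medians over all probes agreed closely but lie near background, and nothing was rescaled.

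Groups follow the phenotype label. The 2 A5 arrays were averaged, giving 8 lines as samples. These 8 lines were fitted with limma 3.58.1 (R 4.3.3), using lmFit followed by eBayes with trend, with Benjamini-Hochberg adjustment over the 576 probes and a threshold of 0.05, beside exact two-sided permutation over the 56 splits. The 5 non-malignant lines were left out of this main fit. Arrays of 2 of them were known from an earlier account to stand apart and would have set the shared spread. The limma step was tested on simulated data. A probe with no overlap has every line of 1 group above every line of the other. Where a probe was below background in a whole group, the fold sets the brighter group's mean against a bound for the dim group. That bound is the mean of, per array, the higher of the probe's own signal and the dimmest mouse probe above background. The fold is a lower bound only where every line of the brighter group was above background, since lines below it entered at their own signal. A miRNA with several probes is represented by its brightest.

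The miRNAs named are miR-203 and miR-205, the non-overlapping miRNAs above background, the 10 smallest p-values and 5 largest differences in each direction, the members of the miR-200, miR-183 and fibroblast lists, and up to 4 of each other list described. Not each of these is printed. The named miRNAs, the lists with their members and the rules were chosen with earlier results of these data known. Alternatives were other scalings, the filter, the trend, array weights, the tumour as a block, single A5 arrays, all 13 lines, other background steps and leaving out each line. The fit with the tumour as a fixed block held only B9, A5, D3, E4 and H11. The number of arrays limits the precision. Sequences are from RefSeq.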

Additional observations from a re-analysis of the deposited data

Results flagged for a closer look

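Each of 61 miRNA and control values was checked for a spindle line far from the other 4, by Dixon's criterion (gap over range above 0.71 for 5 samples). Chance marks about 1 in 20 groups, and 9 of the 61 were marked, 5 of them by A5. In A5, miR-433* read 10.73 against 8.78 to 8.99 in the other spindle lines, and miR-181d read 7.52 against 6.61 to 6.86. miR-322 was at 6.79 in A5 and at 7.56 to 7.82 in the others. The ubiquitous let-7a read 7.56 in A5 and 9.87 to 10.51 elsewhere among spindle lines, and negative control probe 5 read 11.34 against 8.96 to 9.25.

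D3 stood apart for miR-146a, at 7.96 against 6.47 to 6.81, and for the second U6 probe, at 14.77 against 12.39 to 12.73. CARB stood apart for miR-429, at 7.40 against 6.46 to 6.68, and H11 for miR-140*, at 9.17 against 7.50 to 7.79.

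Within the 2 tumours that gave both morphologies, 6 named miRNAs had differences of opposite sign, some of them between signals below background. These differences were not tested. For miR-205, H11 minus E4 was 0.21, with both lines below background, whereas A5 and D3 minus B9 were -3.56 and -4.02. For miR-96 it was 0.23, against -1.20 and -0.45. miR-18a gave 0.20 against -2.28 and -0.29, and miR-181c 0.10 against -0.56 and -0.93. B9 and D3 were below background for miR-181c. For miR-140* the H11 difference was 1.48 and the others -0.27 and -0.34. miR-29a went the other way, at -0.99 in H11 and 0.60 and 0.58 in A5 and D3.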

How the results depend on the processing

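Of 20 alternatives for the count of probes with an adjusted limma p under 0.05, 18 gave 0, as reported, and 22 probes had an unadjusted p under 0.05. Array weights gave 5, with miR-200a, miR-200b, miR-141 and miR-205 lower and miR-322 higher; the weight was 3.656 for PDVC57 and 0.382 for A5. Leaving out 1 line gave 0 to 3, the 3 being miR-200a, miR-200b and miR-205 without E4. The smallest adjusted limma p ran from 0.00214 (miR-205, without E4) to 0.981 (tumour as a fixed block). The 22 non-overlapping probes became 13 after centring on probes above background in all 8 lines, and 25 to 51 when 1 line was left out. The 8 that were also above background became 9 to 16, the most without E4. They numbered 14 without H11 and 13 without A5, and 6 to 12 under the other scalings and background steps. Fewer lines make separation easier by construction.

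For 54 miRNAs named under the rule, 678 of 702 values under alternatives kept direction and side of the threshold. None of these miRNAs passed the threshold in the main fit, so keeping its side means only that none passed there either. Reversals concerned 11 miRNAs with small or overlapping differences. With the tumour as a fixed block, miR-214 gave -0.22 and miR-497 -0.02. Quantile normalization gave 0.03 for miR-29a. Over all lines left out in turn, the differences ran from -0.04 to 0.11 for miR-203, from -0.18 to 0.40 for miR-214, from -0.13 to 0.28 for miR-140*, from -0.49 to 0.02 for miR-181d, from -0.33 to 0.13 for miR-181c, from -0.13 to 1.62 for miR-142-3p, from -0.25 to 1.12 for miR-142-5p, from -0.03 to 0.22 for miR-150 and from -0.01 to 0.07 for miR-486. The cause of these shifts was not tested. Replicate numbers are given for the 2 A5 arrays alone, so lines were paired only through their tumour of origin. The fixed tumour block, fitted without PDVC57, CARB and CARC, gave 0 calls with limma. Centring moved the median of all mouse probes from -0.01 to 0.09.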

Other observations

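For some nearly identical miRNAs, A5 lay outside the range of the other 7 malignant lines in opposite directions. Of 83 mouse probes above background in those 7, A5 was below the lowest for 34 and above the highest for 23. The let-7 sequences below, 5′ to 3′ from RefSeq (GRCm38.p6), show this, with capitals marking the base that differs from let-7a.
let-7a: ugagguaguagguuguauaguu
let-7c: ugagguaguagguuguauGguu
let-7e: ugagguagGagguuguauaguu
let-7a read 7.56 in A5 and 9.87 to 10.51 in the other lines. let-7c read 11.88 in A5 and 9.37 to 11.44 in the others, and let-7e 14.26 against 11.10 to 13.19. A5 was thus lowest for let-7a and highest for let-7c and let-7e, each 1 base away. let-7f, also 1 base from let-7a, went the same way as let-7a, at 9.26 in A5 against 9.97 to 11.98. A low let-7a was not confined to A5 in the series. In the non-malignant lines C5N and MSCP1 it read 6.99 and 7.34, and let-7c there read 8.66 and 9.02.

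miRNAs processed from 1 primary transcript diverged in the same line. miR-106b read 6.65 in A5 and 8.64 to 10.64 in the others, while its cluster mates miR-93 and miR-25 read 9.93 and 9.48 against 7.86 to 10.30 and 7.52 to 9.01. miR-20a read 7.13 in A5 against 8.85 to 10.86, whereas miR-17 and miR-19a of its cluster read 10.58 and 10.92 against 8.44 to 10.60 and 8.95 to 10.81. miR-23a read 7.42 in A5 against 10.25 to 12.08, and its close relative miR-23b, from another cluster, 11.86 against 9.60 to 12.30. miR-21, an oncogenic miRNA abundant in many carcinomas, read 8.40 in A5 and 11.78 to 13.57 in the others. It was also low in the non-malignant lines C5N, at 7.01, and MSCP1, at 10.21. The 2 A5 arrays gave the A5 levels alike, with r = 0.994 between them.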
